A study of Rattus norvegicus with 3 samples.

Results

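Complex I genes were described here across 3 rat calf muscles, with 1 array each for the normal soleus, the normal plantaris and the soleus 28 days after its nerve was cut. The members are all genes whose symbol starts with Nduf and whose RefSeq accession names a probe of the array. Of 56 protein-coding Nduf genes in the reference 38 had such a probe, out of 15168 genes named on the array in all. They are the 7 core subunits made from nuclear genes, 23 of 30 listed accessory subunits, 6 of 8 assembly factors, and 2 further genes, Ndufa4 and Ndufa10l1. The other 18, among them Ndufs6, Ndufa3, Ndufa7, Ndufa8, Ndufa13, Ndufb1, Ndufc1, Ndufaf2, Ndufaf6 and Ndufa4l2, are not analysed here.

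The animals were male rats of 12 weeks on a background the labels spell Wistar Honnover. In the denervated group the left sciatic nerve had been cut across the gluteal region with removal of about 5 mm, and the control rats had received no treatment. The labels do not say how many animals each array stands for, nor that a sham operation was done. With no replicates there is no test, so every difference below describes these arrays. Both normal muscles shared 1 slide and 1 scan, whereas the denervated array came from a different slide and scan. Denervation and slide cannot be told apart.

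Complex I is the entry point of the respiratory chain. It takes electrons from NADH, passes them through a flavin and a row of iron-sulfur clusters to ubiquinone, and pumps protons across the inner mitochondrial membrane. Its peripheral arm reaches into the matrix and holds all of the nuclear core subunits, while the remaining core subunits are made from mitochondrial DNA and lie in the membrane arm. Accessory subunits surround this core, and assembly factors help to build the enzyme without being part of it. The soleus is a slow postural muscle rich in mitochondria, and the plantaris is its faster neighbour.

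The tissues carried the marks of their labels. All 7 slow fibre markers were at least 2-fold lower in plantaris than in soleus, 8 of 9 fast fibre markers were at least 2-fold higher, and all 6 genes known to be induced by denervation were at least 2-fold higher in the denervated soleus, led by Chrng at 4.72 and Myod1 at 4.35 (log2 fold). Between 64.2% and 67.0% of 30367 probes were well above background on each array. All 38 members were well above background on all 3 arrays. Levels are log2 signals relative to the 75th percentile of the array, and those of single genes are compared only within a gene. The summed levels, the brightness cut and the levels set against folds or between classes do cross genes. Such values also depend on how bright each probe is. Errors (±) are those of the scanner software and cover measurement alone. For the members they were 0.20 to 0.21 whatever the number of spots, so they act nearly as a fixed cut-off. For members with repeat spots, the median SD between spots was 0.03 to 0.05 log2 units, and the highest was 0.18.

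In the denervated soleus all 38 measured complex I genes had a lower level than in the normal soleus (37 under quantile normalization), as had 48.1% of 11318 genes measured in this comparison. Of the 38 members 23 were at least 2-fold lower and 0 were at least 2-fold higher, with a median log2 fold of -1.15 and a range from -2.03 to -0.32. Of all genes measured 13.4% were at least 2-fold lower and 8.73% at least 2-fold higher, and their median was 0.02. At 1.5-fold, 34 members and 22.7% of all genes were lower. The 2-fold shares were 9.78% and 13.9% with the values deposited by the authors, and 8.84% and 3.24% with normexp background. Under quantile normalization they were 12.3% and 9.52%. The core subunits stood lowest, with 7 of 7 past 2-fold and a median of -1.55, against 13 of 23 accessory subunits (median -1.11) and 2 of 6 assembly factors (median -0.55). Quantile normalization left 15 members past 2-fold with a median of -0.77, and the values deposited by the authors left 14 with a median of -0.91.

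Complex I subunits are bright on these arrays, and bright genes as a whole leaned the same way. Of 820 genes at least as bright as the dimmest subunit, members included, a set chosen after the values were seen, 27.3% were at least 2-fold lower in the denervated soleus and 3.41% higher, with a median of -0.31. Of the 30 core and accessory subunits 20 were at least 2-fold lower (66.7%), with a median of -1.18. Across the 38 members the fold went with the level in normal soleus at r = -0.30 (Spearman rho = -0.24), and across the 30 subunits at r = -0.07 (rho = -0.03). These correlations are across genes that share the same arrays and the same scale.

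**Figure D1:**
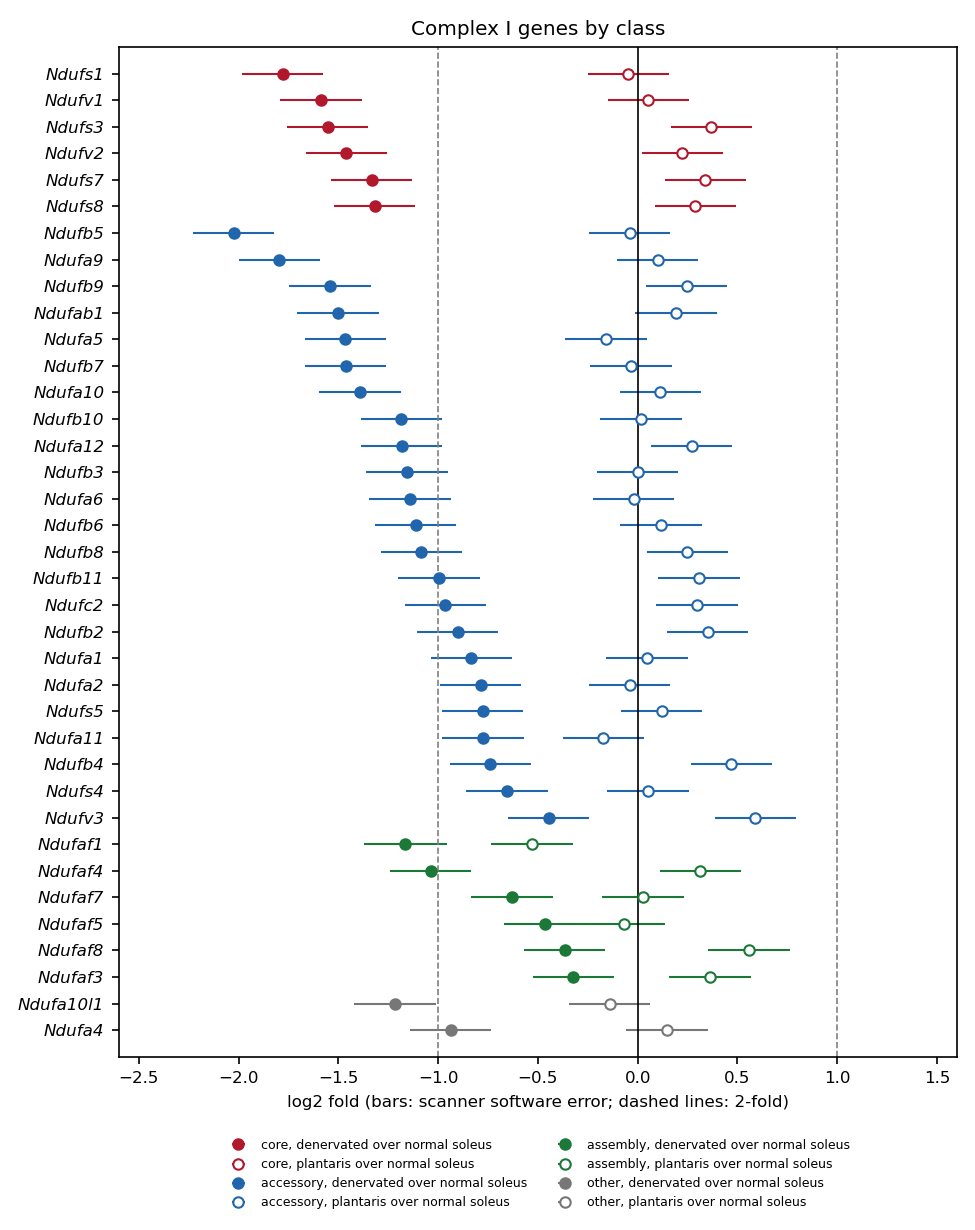
Log2 fold of 37 complex I genes (rows, italic) in the denervated over the normal soleus (filled points) and in plantaris over the normal soleus (open points), with the scanner software's error as bars and dashed lines at 2-fold. The filled points all lie below 0, from -2.03 to -0.32, whereas the open points lie between -0.53 and 0.59. Under quantile normalization 1 filled point, Ndufv3, moves to 0.03.

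Among the core subunits, Ndufs1, the large iron-sulfur subunit of the peripheral arm, stood at 4.95 in normal soleus, 4.90 in plantaris and 3.17 in the denervated soleus. Its denervated level was 29.1% of the normal one, a log2 fold of -1.78 ± 0.20. Ndufv1, which binds NADH and the flavin, stood at 6.35 in normal soleus, 6.41 in plantaris and 4.76 after denervation (-1.59 ± 0.20). For both genes the 2 normal muscles were within the error of each other and the denervated muscle lay apart.

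Ndufs7 carries the last iron-sulfur cluster before ubiquinone. It stood at 5.73 in normal soleus, 6.07 in plantaris and 4.39 after denervation (-1.33 ± 0.20, or -0.94 under quantile normalization). That made it the only core subunit short of 2-fold under any of the alternatives tried.

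Ndufs3, a scaffold on which the peripheral arm is begun, stood at 5.19 in normal soleus, 5.56 in plantaris and 3.63 after denervation (-1.55 ± 0.20). Ndufv2, the iron-sulfur partner of Ndufv1, stood at 6.68, 6.90 and 5.22 (-1.46 ± 0.20). Ndufs8, a subunit with 2 clusters, stood at 3.55, 3.84 and 2.24 (-1.32 ± 0.20). The 5 core subunits that carry the flavin or iron-sulfur clusters had a median of -1.46, and the core as a whole kept within a narrow band from -1.78 to -1.32.

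Accessory subunits varied more, from -2.03 to -0.45. The lowest fold of any member was that of Ndufb5, a membrane arm subunit, which stood at 6.77 in normal soleus, 6.73 in plantaris and 4.74 in the denervated soleus. That is 24.6% of normal (-2.03 ± 0.20), and each level is a mean over 10 spots with an SD of at most 0.10. Ndufa9, a peripheral arm subunit near the junction of the arms, stood at 4.42, 4.52 and 2.62 in the same order (-1.80 ± 0.20). Both were as low as the lowest core subunits.

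Next came Ndufb9, a membrane arm protein of the LYR family, at 7.03 in normal soleus, 7.27 in plantaris and 5.49 after denervation (-1.54). Ndufab1, the mitochondrial acyl carrier protein, stood at 5.68, 5.87 and 4.18 (-1.50), although a second, much fainter probe gave -0.61. Ndufa5, a peripheral arm subunit, stood at 7.68, 7.52 and 6.21 (-1.46), and Ndufb7, which faces the intermembrane space, at 5.36, 5.33 and 3.90 (-1.46). In each of these genes, by its brightest probe, both normal muscles stood above the denervated one by over 1 log2 unit. The fainter Ndufab1 probe gave -0.13 ± 0.23 for the denervated soleus over plantaris and -0.48 ± 0.23 for plantaris over normal soleus.

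A middle group sat around the 2-fold line. Ndufa10 was at -1.39, Ndufb10 and Ndufa12 were both at -1.18, Ndufb3 at -1.16, Ndufa6 at -1.14, Ndufb6 at -1.11 and Ndufb8 at -1.08, each ± 0.20. Ndufb11 was just short of 2-fold at 50.2% of normal. Ndufc2 followed at -0.96, Ndufb2 at -0.90, Ndufa1 at -0.83, Ndufa2 at -0.79 and Ndufs5 at -0.78. Neighbours from Ndufb10 on stood closer to each other than the error.

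The accessory subunits with the smallest differences were spread over both arms. Ndufa11, a membrane arm subunit, stood at 4.11 in normal soleus, 3.94 in plantaris and 3.33 after denervation (-0.77 ± 0.20). Ndufb4, also of the membrane arm, stood at 6.54, 7.01 and 5.80 (-0.74 ± 0.20, or -0.18 under quantile normalization). Ndufs4, a peripheral arm subunit whose loss causes mitochondrial disease, stood at 4.31, 4.37 and 3.66 (-0.65 ± 0.20), and a fainter probe gave -0.26. Ndufv3, the small companion of the NADH-binding subunits, stood at 5.74, 6.33 and 5.29 (-0.45 ± 0.20, or 0.03 under quantile normalization). Ndufs4 and Ndufv3 sit in the same arm as the core subunits. They were among the 16 of 23 accessory subunits that lay above all 7 core subunits.

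The folds of the 2 arms of the enzyme overlapped. The 14 measured peripheral arm subunits had a median of -1.40 and the 15 membrane arm subunits one of -1.08. All of the nuclear core lies in the peripheral arm, and without it the 7 peripheral accessory subunits had a median of -1.14. The core median minus the accessory median was -0.44 log2 units, and the core median minus the assembly factor median was -1.01. Over the alternatives tried the first gap ran from -0.54 to -0.44 and the other from -1.14 to -0.68. No core subunit was as high as any assembly factor, though under quantile normalization Ndufaf1 (-1.25) lay below several of them and Ndufaf4 (-1.03) below Ndufs7 (-0.94). By contrast, 7 of 23 accessory subunits lay within or below the range of the core. The classes also differed in brightness. Their median levels in normal soleus were 5.29 for the core, 5.91 for the accessory subunits and 1.76 for the assembly factors. With 1 array per muscle the gap between classes was not tested, nor was the part of brightness in it.

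Of the assembly factors, Ndufaf1, which works on the membrane arm, stood at -0.95 in normal soleus, -1.48 in plantaris and -2.12 in the denervated soleus (-1.16 ± 0.21). Ndufaf4, an early factor of the peripheral arm, stood at 0.97, 1.28 and -0.07 (-1.04 ± 0.20, or -0.96 as a mean over its probes). Its 4 probes gave folds from -1.19 to -0.76. Ndufaf3, the partner of Ndufaf4, stood at 3.01, 3.37 and 2.69, and its fold of -0.32 ± 0.20 was the smallest of any member. Under quantile normalization it was -0.10. The pair thus differed by more than the error on these arrays.

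Ndufaf7, a methyltransferase, stood at -0.91 in normal soleus, -0.89 in plantaris and -1.54 after denervation (-0.63 ± 0.21), while a fainter probe gave 0.16. Ndufaf5, which hydroxylates Ndufs7, stood at 2.55, 2.48 and 2.09 (-0.46 ± 0.20). Its partner Ndufaf8 stood at 4.57, 5.13 and 4.21 (-0.37 ± 0.20, or -0.01 under quantile normalization). Ndufaf3, Ndufaf5 and Ndufaf8 lay within 0.5 log2 units of the normal soleus. Among 11 measured assembly factors of complex I without an Nduf symbol, 3 were at least 2-fold lower and 0 higher, with a median of -0.51. They were Ecsit (-1.43) and Acad9 (-1.23), partners of Ndufaf1 in the same assembly complex, and Aifm1 (-1.14). The other 8 were short of 2-fold, Tmem126b (-0.49) and Timmdc1 (-0.29) among them, and 1 of the 11 lay above 0.

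Ndufa4 was long counted to complex I and is now placed in complex IV. It stood at 6.70 in normal soleus, 6.85 in plantaris and 5.76 after denervation (-0.94 ± 0.20). Ndufa10l1, named as a relative of Ndufa10, stood at 5.17, 5.03 and 3.95 (-1.22 ± 0.20). The reference holds 49 Nduf pseudogenes and several near copies of Ndufb3 and Ndufb4, and signal from such copies on the same probes was not tested.

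**Figure D2:**
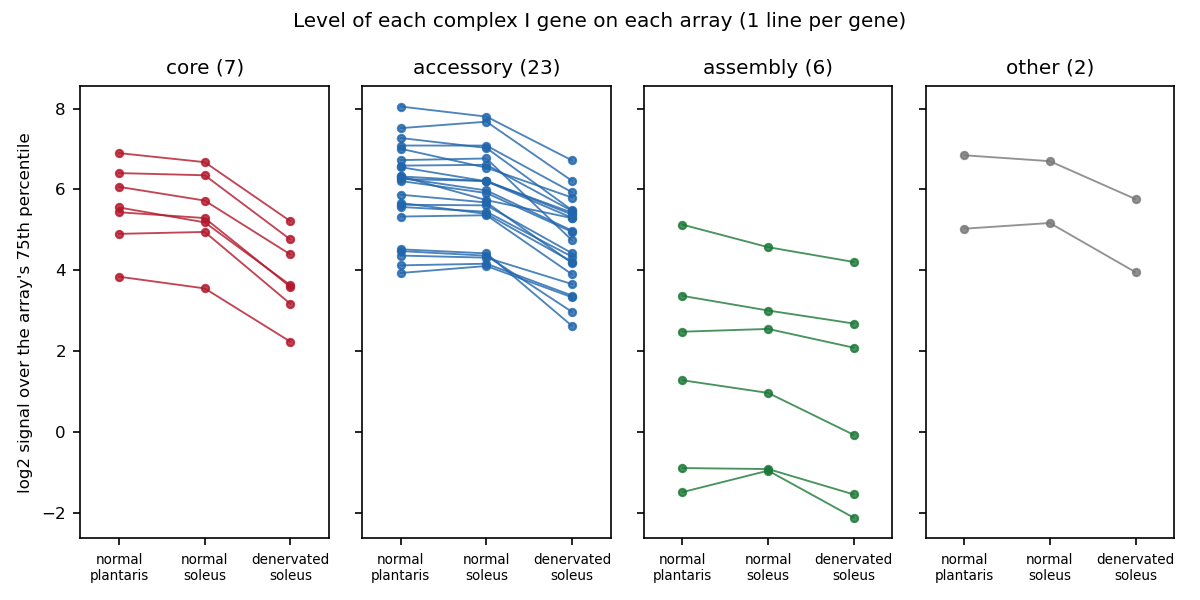
Log2 signal of each complex I gene over the 75th percentile of its array, in the normal plantaris, normal soleus and denervated soleus, with 1 line per gene and 1 panel per class. The denervated soleus is the lowest point of all 38 lines (37 under quantile normalization), while the 2 normal muscles lie close to each other.

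The denervated soleus was the lowest of the 3 arrays for 38 of 38 members, and for 37 under quantile normalization. Among 11606 genes well above background on any array it was the lowest for 40.5%. The plantaris was the highest for 28 members and the normal soleus for 10 (26.3%), where they were the highest for 35.5% and 23.3% of those genes. The order of the normal muscles depended on the processing. Their difference changed sign for 13 members under quantile normalization and for 7 with the values deposited by the authors. Against plantaris, the denervated soleus was at least 2-fold lower for 28 of 38 members (median -1.26, from -1.98 to -0.40), where 16.7% of 11371 genes were, and 0 members but 12% of genes were at least 2-fold higher. All 38 lay below 0, as did 49.2% of those genes. This comparison follows from the other comparisons with the normal soleus and uses no further array.

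Most other mitochondrial genes measured were also lower. Of 44 measured genes of complexes II to V, a list that also holds cytochrome c, the inhibitor Atp5if1 and the pseudogene Cox6c-ps1, 36 were at least 2-fold lower in the denervated soleus and 0 higher (median -1.30). They included Cycs, cytochrome c itself, at -2.08 and Cox7c of complex IV at -1.92, while Atp5if1 alone lay above 0, at 0.64. Of 66 mitochondrial ribosomal proteins 13 were at least 2-fold lower and 0 higher (median -0.62), led by Mrpl47 at -1.54 and Mrpl12 at -1.43, and 3 lay above 0 (Mrpl23 0.24, Mrpl52 0.15 and Mrpl13 0.01). The complex I subunits, at -1.18, thus lay close to the other complexes, and the Ndufaf genes, at -0.55, close to the mitochondrial ribosome. None of these differences between lists was tested.

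Markers of muscle fibres and of other cell types also differed on the denervated array. In bulk muscle, fewer cells of a type and less RNA per cell cannot be told apart. Of 7 markers of muscle fibres of any type 4 were at least 2-fold lower (median -1.21), namely the mitochondrial creatine kinase Ckmt2 at -3.83, skeletal actin Acta1 at -2.44, the creatine kinase Ckm at -1.48 and desmin, Des, at -1.21. The other 3 were Cox6a2 (-0.97), which is also counted in complexes II to V, Eno3 (-0.88) and Mb (-0.18, within the scanner error). The summed level of the 7, in multiples of the 75th percentile, was 2415 in normal soleus, 1092 in the denervated soleus and 3201 in plantaris. Of 7 measured fat cell markers 4 were at least 2-fold higher (Adipoq 3.65, Cidec 2.83, Retn 2.68 and Cfd 2.40) and 1 lower (Pnpla2 -1.27), with summed levels over 8 markers of 18.7, 69.1 and 15.5, and Lep was not well above background on any array. Of 10 fibroblast and tendon markers 2 were at least 2-fold higher (Comp 2.77 and Fmod 2.11), with summed levels of 192, 398 and 365. All 10 lay above 0, with a median of 0.88.

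Endothelial and slow fibre markers were for the most part lower together with complex I. Of 5 measured endothelial markers 3 were at least 2-fold lower (Cdh5 -2.30, Kdr -1.39 and Flt1 -1.29), with summed levels of 12.4 in normal soleus and 6.47 in the denervated soleus. The other 2, Pecam1 (-0.20) and Tek (0.22), differed by no more than the scanner error. Of 7 slow fibre markers 6 were at least 2-fold lower (median -1.50), led by Myl2 at -2.24 and Atp2a2 at -1.75. By contrast, of 9 fast fibre markers 4 were at least 2-fold higher and 0 lower (Pvalb 6.02, Actn3 5.15, Myh1 4.43 and Myh4 1.30). Yet 3 of the 9 lay below 0 (Atp2a1 -0.85, Myh2 -0.52 and Tnni2 -0.14). Of 8 macrophage markers 0 were 2-fold apart. Mrc1 at 0.63 and Ptprc at 0.61 were the highest, and 3 lay below 0 (Cd68 -0.35, Itgam -0.22 and Lyz2 -0.10). The other 5 lay above 0. The summed level of the 8 was 26.9 in normal soleus and 25.7 in the denervated soleus, and it rests mostly on Lyz2, the brightest of them. The part of these shifts in the complex I result was not tested.

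**Figure D3:**
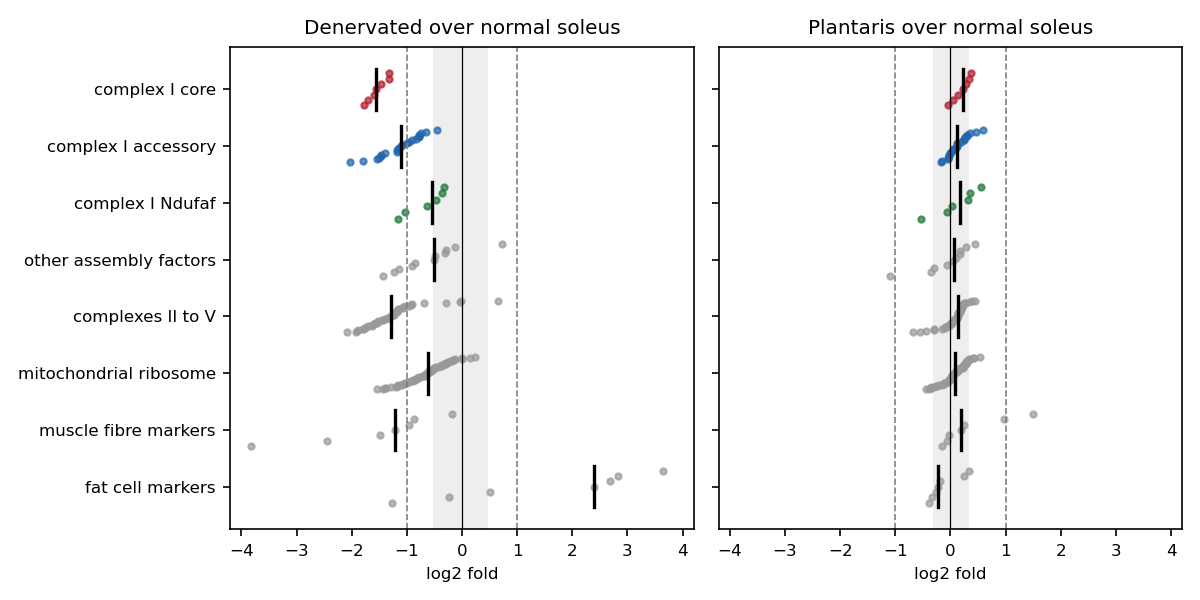
Log2 fold of each measured gene (points) and list median (black bars) for complex I classes and other gene lists, in the denervated over normal soleus (left) and plantaris over normal soleus (right). Dashed lines mark 2-fold and the grey band holds the middle 50 percent of all named genes. In the denervated soleus the medians of all lists but the fat cell markers lie left of the band, among them the core (-1.55) and complexes II to V (-1.30). In plantaris the medians of the mitochondrial lists lie within it.

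In plantaris, complex I genes stood near their soleus level. None of 38 members was 2-fold apart in either direction, with a median of 0.12 and a range from -0.53 to 0.59 (10 members below 0, beside 47.5% of all genes), while 6.11% of 11015 genes were at least 2-fold lower and 5.71% higher. The median turned to -0.07 under quantile normalization. At 1.5-fold 1 member was higher and 0 lower, beside 13% and 12.7% of all genes. Of the 820 bright genes 4.88% were at least 2-fold lower and 8.17% higher. The core median was 0.22, the accessory median 0.11 and the assembly factor median 0.17, and the first 2 turned to -0.05 and -0.10 under quantile normalization.

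Of the 38 members 16 (42.1%) differed between the normal muscles by more than the scanner error, as did 58.5% of all genes measured. The highest folds were 0.59 for Ndufv3, 0.56 for Ndufaf8, 0.47 for Ndufb4, 0.37 for Ndufs3 and 0.36 for Ndufaf3. Ndufb2, a small membrane arm subunit, followed at 0.35, with levels of 6.20 in soleus and 6.55 in plantaris. On the other side Ndufaf1 was at -0.53 ± 0.21, Ndufa11 at -0.17 and Ndufa5 at -0.16. Acad9, which works beside Ndufaf1, was the only 2-fold difference among 10 measured assembly factors without an Nduf symbol, at -1.10. Ecsit, the other partner named above, was at 0.29, and 6 of the 10 lay above 0 (median 0.07). Of complexes II to V, 0 of 44 were 2-fold apart (median 0.13).

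Members with several probes showed how far a fold rests on the probe. Of 50 probes for the 38 members, 49 were lower in the denervated than in the normal soleus. The exception was the fainter probe of Ndufaf7. Ndufv3 stood out in plantaris. Its 2 bright probes gave 0.59 and 0.55, but the dimmest probe stood at 0.79 in normal soleus, 0.20 in the denervated soleus and -1.01 in plantaris. That is a plantaris fold of -1.79 ± 0.20, from 10 spots per array with an SD of at most 0.10. This probe was higher in the denervated soleus than in plantaris by 1.21, where the bright probes were lower by 1.03 and 1.14. The files name all 3 probes by the same accession, so which transcript each one reads is not given here.

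**Figure D4:**
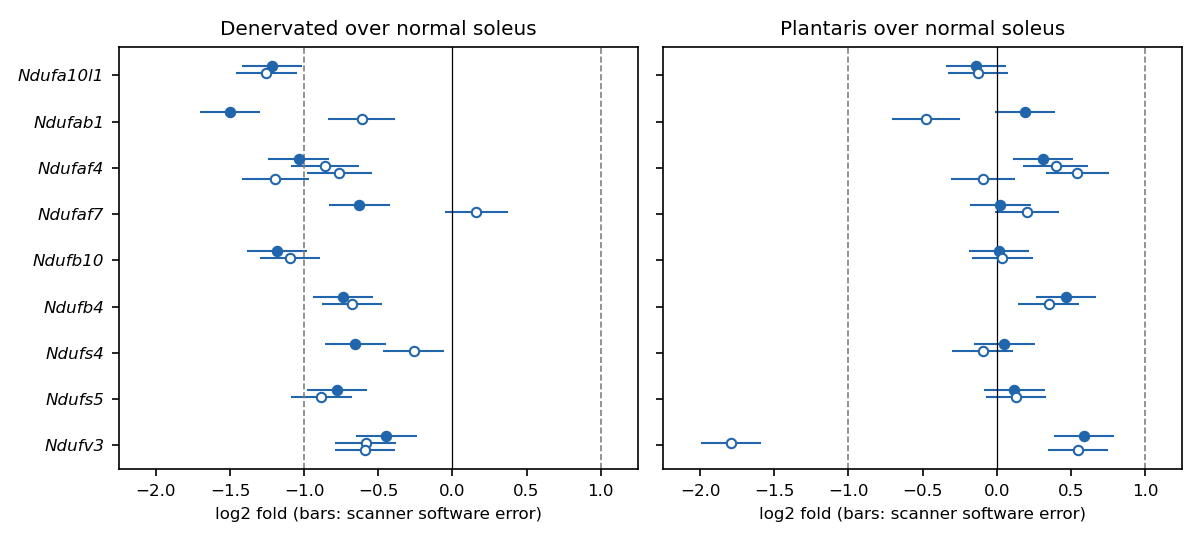
Log2 fold of every probe of the 9 complex I genes with several probes, in the denervated over normal soleus (left) and plantaris over normal soleus (right). Filled points are the brightest probe, used elsewhere for the gene, open points the others, bars the scanner software's error and dashed lines 2-fold. The open Ndufv3 point at -1.79 on the right lies far from its other probes at 0.59 and 0.55.

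Promoters are shown for the member with the lowest fold in the denervated soleus, the core subunit with the lowest fold and the member with the fold nearest 0, so that the genes at both ends can be read side by side. Each is the 250 bases before the annotated start of the gene, 5′ to 3′ on the strand of the gene, from RefSeq on GRCr8. They lie at chr2:117447355-117447604 (plus strand, Ndufb5), chr9:72073606-72073855 (minus strand, Ndufs1) and chr8:118141724-118141973 (minus strand, Ndufaf3). Capitals mark a match to one of the motifs searched.
Ndufb5: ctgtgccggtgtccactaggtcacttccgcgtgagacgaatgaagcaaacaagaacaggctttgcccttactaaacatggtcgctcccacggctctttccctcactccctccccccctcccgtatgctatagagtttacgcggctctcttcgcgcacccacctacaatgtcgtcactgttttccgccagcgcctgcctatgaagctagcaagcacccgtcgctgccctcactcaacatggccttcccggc
Ndufs1: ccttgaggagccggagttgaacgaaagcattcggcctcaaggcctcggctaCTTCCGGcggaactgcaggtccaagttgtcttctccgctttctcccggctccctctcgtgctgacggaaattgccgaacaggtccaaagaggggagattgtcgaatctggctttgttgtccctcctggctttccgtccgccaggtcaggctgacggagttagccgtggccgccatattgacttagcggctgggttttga
Ndufaf3: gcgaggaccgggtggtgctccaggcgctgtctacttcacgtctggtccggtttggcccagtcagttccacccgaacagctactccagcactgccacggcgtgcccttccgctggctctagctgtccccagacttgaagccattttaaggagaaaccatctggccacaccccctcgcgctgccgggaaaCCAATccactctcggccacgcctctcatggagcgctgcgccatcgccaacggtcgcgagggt

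The motifs were those of factors often found at promoters of respiratory genes or of genes in general. They were searched on both strands in the same 250 bases of 27457 promoters, of which 35 belong to members. No motif holds the letters of another. The NRF1 motif GCGCATGCG was in 3 of 35 members (Ndufa11, Ndufaf4 and Ndufaf5) and in 1.49% of all promoters. The ETS core CCGGAAG was in 8 of 35 members and 7.74% of all promoters. Those members were Ndufs1, Ndufs8, Ndufa1, Ndufa2, Ndufa6, Ndufb7, Ndufaf1 and Ndufaf8, from every class of the enzyme. The ERR motif AAGGTCA was in 2 of 35 (3.77% of all), the YY1 core AAGATGGCG in 0 of 35 (0.736%), the CCAAT box in 11 of 35 (34.3%) and the TATA box TATAAA in 1 of 35 (13.1%). In the printed stretches Ndufs1 held the ETS core, Ndufaf3 the CCAAT box and Ndufb5 none of the 6.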

How the data were processed

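Messenger RNA was measured on 3 single-colour (Cy3) Agilent arrays, 1 per group, each with 58717 non-control spots. The scanner software was Agilent Feature Extraction 10.10.1.1, per the file headers. Its processed signal, an intensity per the file headers, has the background subtracted and carries no scaling across arrays. Other columns used, per the file headers, are flags of 0 or 1. The table the authors deposited holds the intensity, equal to the processed signal times 1.60 (normal soleus), 1.41 (denervated soleus) or 1.80 (plantaris). How these factors arose is unknown here.

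Log2 processed signals were centred on each array's 75th percentile. Outlier spots (467 to 569 per array) were left out, 0 were saturated, and repeat spots were averaged. The scanner's background flag had to pass on 50 percent or more of a probe's spots. RefSeq accessions named 18005 of 30367 probes (GRCr8 symbols). The brightest probe stood for a gene. A comparison took genes well above background on at least 1 of its arrays. A gene counts where it is at least 2-fold apart, a rule of size and not a test.

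Alternatives were other centring, quantile normalization, normexp background (limma 3.58.1, offset 50, on median signals, as the files hold no mean signal), the authors' table, other filters and probes, and 1.5-fold. The members and lists were chosen with earlier results of these data known. Members were named with all values if core, assembly factor, Ndufa4, or accessory with the 6 lowest or 4 highest denervated folds, the 3 highest or lowest plantaris folds, or disagreeing probes; other lists name their 2 largest denervated folds, genes past 2-fold against the list and, after their values were seen, the genes behind counts of 5 or fewer. Ndufa4l2 and protein sequences are not analysed here, and 1 member is counted but not reported singly. The code was tested on simulated data.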

Additional observations from a re-analysis of the deposited data

How the results depend on the processing

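All 38 members stayed below 0 in the denervated soleus under every alternative except quantile normalization, where Ndufv3 turned to 0.03. There Ndufaf8 (-0.01), Ndufaf3 (-0.10) and Ndufb4 (-0.18) also came within the scanner error of 0.20. The authors' values put Ndufaf3 at -0.08. No member was at least 2-fold higher under any of them. In the denervated soleus, quantile normalization left 15 members at least 2-fold lower (median -0.77), with 7 accessory (median -0.64) and 13 of the 30 subunits (median -0.81). There the core median was -1.17 and stood below the assembly factor median by a difference of -0.68. The authors' values left 14 members (median -0.91), 7 accessory (median -0.87) and 0 assembly factors (median -0.30), with medians of -1.31 for the core and -0.94 for the subunits. They moved the median of all genes by construction of their factors to 0.26, and the members lie below that. A mean over probes left 1 assembly factor past 2-fold. At 1.5-fold 22 accessory subunits were lower.

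In plantaris, quantile normalization gave a median of -0.053 for the core and -0.10 for the accessory subunits, with a core minus assembly difference of -0.17. At 1.5-fold 1 member, an accessory subunit, and so 1 of the subunits, was higher. Centring on the median, normexp background, filters on dim probes and outlier spots moved no median by more than the scanner error. The number of arrays limits precision. The cause of the shifts under quantile normalization was not tested.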

Other observations

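Genes of the NADH shuttles, listed together with Nnt and Etfdh, were lower in the denervated soleus as well. Of the 8 genes in this list 5 were at least 2-fold lower and 0 higher, with a median log2 fold of -1.58. The malate dehydrogenases Mdh1 and Mdh2, which shuttle NADH equivalents into mitochondria, stood at -2.41 and -1.97, the transhydrogenase Nnt at -1.70, the aspartate transaminase Got1 at -1.67 and Etfdh, which feeds electrons to ubiquinone from fat oxidation, at -1.50.

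In plantaris the same list split. The glycerol phosphate shuttle, which bypasses complex I, was higher at both of its steps, with Gpd1 at 3.41 and Gpd2 at 1.34, and the other 6 genes lay between -0.83 and 0.33. After denervation Gpd1 stood at -0.91 and Gpd2 at -0.22. Each is a value from 1 array per muscle, and none was tested.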
